A study of Mus musculus with 6 samples.

Results

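S100 proteins and annexins are the calcium-responsive proteins that meet at the inner face of cell membranes. The 10 genes described here, 6 of S100 proteins (S100a4, S100a6, S100a8, S100a9, S100a10 and S100a11) and 4 of annexins (Anxa1, Anxa2, Anxa3 and Anxa5), were taken by symbol from a count table of 22966 genes, and all 10 had a row. The table covers 6 RNA libraries from primary hepatic stellate cells of the mouse, the retinoid-storing pericytes of the liver that turn into collagen-producing myofibroblasts after injury. By their titles, 3 libraries are flox and 3 are Cre. All 6 carry the same genotype entry, BucheHep, and the entry CCl4 treatment, after the solvent carbon tetrachloride, which injures hepatocytes. The series is about loss of butyrylcholinesterase from hepatocytes and its effect on stellate cells, so the groups are taken as mice with and without Cre recombinase, on the titles alone. The labels give no age, no promoter for Cre, no cell sort, and they do not state that each library is another animal. The p-values therefore reflect library-to-library spread, which may be technical.

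S100 proteins are small EF-hand proteins that mostly work as dimers: when calcium binds, a surface opens and grips a target. Annexins bind acidic phospholipids in a calcium-dependent way and help in membrane traffic, repair and the anchoring of the cytoskeleton. The families are coupled, since S100A10 binds the tail of annexin A2 and S100A11 that of annexin A1. S100A8 and S100A9 form calprotectin, the abundant cytosolic complex of neutrophils and monocytes, and S100A4 has been used as a marker of fibroblasts although liver macrophages carry it as well.

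The libraries held 37273142 to 41006722 counts, and 3 counts correspond to 0.0724 to 0.0862 CPM (counts scaled to a common library size by TMM, as in all CPM below), a floor for counting error only. The labelled cell type was checked on a list of stellate genes: Reln, Pdgfrb, Dcn and Col1a1 had at least 1026 counts in each library, while Lrat, the retinol-esterifying enzyme of quiescent stellate cells, had 5 to 95 counts. Macrophage RNA was present in quantity and differed between the groups. All 15 of 15 macrophage and Kupffer cell markers were lower in the Cre libraries (edgeR adjusted p below 0.05), with a summed level of 14391, 18891 and 7549 CPM in flox 1, 2 and 3 and of 1993, 1316 and 1930 CPM in Cre 1, 2 and 3. The stellate list summed to 2448, 1412 and 1231 CPM in flox 1, 2 and 3 and to 2208, 2935 and 3287 CPM in Cre 1, 2 and 3, with 4 of 17 genes higher and 0 lower, where 6.35% of all tested genes were higher and 8.94% lower. Mesothelial markers were high in 2 libraries, at 678 and 829 CPM in Cre 1 and 2, against 184 CPM in Cre 3 and 237, 147 and 225 CPM in flox 1, 2 and 3. Endothelial markers were highest in flox 3, at 4712 CPM, against 1870 and 1478 CPM in flox 1 and 2 and 2363 to 3990 CPM in the Cre libraries. In bulk libraries fewer cells of a type and less RNA per cell cannot be told apart, and what these differences contribute to the results below was not tested.

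**Figure D1:**
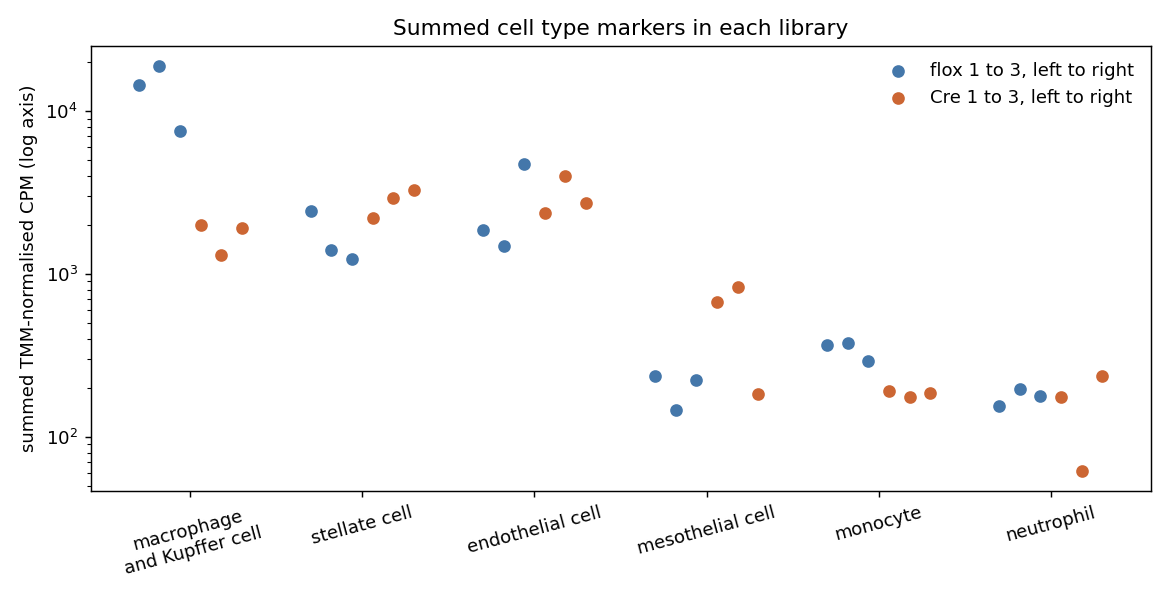
Summed TMM-normalised CPM (log axis) of 6 cell type marker lists, 1 point per library, flox in blue and Cre in orange. The macrophage sums are 7549 to 18891 CPM in flox and 1316 to 1993 CPM in Cre, while the neutrophil sums overlap.

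S100a11 was the 1 member that rose in the Cre libraries, by about 1.89-fold, and 0 members fell. S100a10, the binding partner of annexin A2, lay higher in each Cre library than in each flox library but did not pass the test. The other tested members, S100a4, S100a8 and the 4 annexins, overlapped between the groups. S100a6 and S100a9 had too few counts to be tested. The test was edgeR's quasi-likelihood F-test over all genes, with Benjamini-Hochberg adjustment.

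Of the 10 members, 8 passed the filter on low counts. With 1 of 8 higher and 0 of 8 lower at an edgeR adjusted p below 0.05 (0 lower at an unadjusted p below 0.05 and in DESeq2 as well), the members are read against 6.35% of all 14795 tested genes higher and 8.94% lower. In 2 of the 8, each Cre library lay above each flox library, as in 19.6% of all tested genes, and in 0 of 8 each lay below, against 20.0%. These shares are near the background for so few genes, so they are no result about the family as a whole. The median log2 fold change of the 8, Cre over flox, was 0.31, beside 0.01 over all genes tested.

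The stretch upstream of S100a11 is shown because this gene alone passed the test, and that of Anxa2 because it was the other member whose window held an AP-1 match. RefSeq's table for GRCm38.p6 held 8 of the 10 members. The 250 bases before each start, on the plus strand at chr3:93520246-93520495 for S100a11 and chr9:69453433-69453682 for Anxa2, were searched on both strands for the AP-1 motif TGANTCA, the TEAD motif GGAATG, the GC box GGGCGG and the TATA box TATAAA. Starts are those of RefSeq, and both windows run past the GENCODE M21 starts, 93520488 for S100a11 and 69453620 for Anxa2. In the Anxa2 window all matches after the AP-1 motif lie beyond the GENCODE start. Capitals mark the matches, and no 2 of them share a letter.
S100a11: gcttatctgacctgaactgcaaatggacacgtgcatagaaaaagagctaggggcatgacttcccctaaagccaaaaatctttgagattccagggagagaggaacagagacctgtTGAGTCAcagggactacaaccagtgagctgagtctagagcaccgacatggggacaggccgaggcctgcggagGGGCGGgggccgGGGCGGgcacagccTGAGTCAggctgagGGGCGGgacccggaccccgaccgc
Anxa2: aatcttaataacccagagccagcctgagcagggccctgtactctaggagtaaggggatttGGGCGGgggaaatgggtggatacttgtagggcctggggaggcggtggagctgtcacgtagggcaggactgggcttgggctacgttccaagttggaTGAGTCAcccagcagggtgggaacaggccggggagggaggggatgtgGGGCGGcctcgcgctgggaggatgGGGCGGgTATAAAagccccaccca

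The S100a11 window held 2 AP-1 and 3 GC box matches and the Anxa2 window 1 AP-1, 3 GC box and 1 TATA box match. Over all members with a window, AP-1 matches were in 2 of 8, GC boxes in 3, TATA boxes in 4 and the TEAD motif in 1, the Anxa1 window. Of all 32851 promoter windows of that length, 6.75% held the AP-1 motif, 32.7% the GC box, 12.4% the TATA box and 12.6% the TEAD motif. These are matches of letters, and nothing about binding was measured.

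S100a11 encodes an S100 protein that binds annexin A1 and takes part in membrane repair (chromosome 3, 93520488 to 93526287 in GRCm38, from the GENCODE M21 annotation). It stood at 119.8, 90.5 and 99.3 CPM in flox 1, 2 and 3 and at 216, 206 and 164 CPM in Cre 1, 2 and 3. The lowest Cre library, Cre 3, lay above the highest flox library, flox 1. Mean CPM was 103 ± 15 for flox and 195 ± 27.5 for Cre (SD, n = 3), so the log2 fold change was 0.92 with a standard error of 0.16 (edgeR adjusted p = 0.0246). By p it was 459th of the 14795 genes tested. The call depended on single libraries: it was lost on leaving out flox 1 (adjusted p = 0.0849), flox 2 (0.0713), Cre 1 (0.107) or Cre 2 (0.0824), with log2 fold changes of 0.85 to 1.05 in these fits. Each of these 4 edgeR fits called 0 genes of all those tested, with 3562 to 3978 at an unadjusted p below 0.05. The call held when flox 3 (0.0125) or Cre 3 (0.0295) was left out, and in DESeq2 (1.54e-05) and limma-voom (0.0353). The fit without flox 3 called 5329 of 15296 genes tested.

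S100a10 lies 28.8 kb beyond S100a11 on the same strand (chromosome 3, 93555080 to 93564643). The other 4 S100 members lie in a separate cluster, with further S100 genes such as S100a5 among and beside them. The last of the 4, S100a9, ends 2.82 Mb before the start of S100a11. S100a10 encodes a protein that has lost calcium binding and joins annexin A2 in a complex at the plasma membrane that binds plasminogen and its activators. It stood at 114, 91.1 and 84.1 CPM in flox 1, 2 and 3 and at 162, 125 and 119.8 CPM in Cre 1, 2 and 3. All Cre values were above all flox values, with Cre 3 only just above flox 1. The log2 fold change was 0.49 ± 0.17, and the edgeR adjusted p of 0.0939 did not pass. It passed with library totals in place of TMM (log2 fold change 0.66, adjusted p = 0.0454, where the median of all genes moved from 0.01 to 0.17) and in limma-trend on genes of a mean FPKM of at least 1 (0.0422), and in neither DESeq2 (0.0527) nor limma-voom (0.0996).

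Annexin A2 (Anxa2, chromosome 9, 69453620 to 69491795) is the partner of S100A10 and binds actin and phospholipids. It stood at 494, 463 and 307 CPM in flox 1, 2 and 3 and at 438, 357 and 413 CPM in Cre 1, 2 and 3. The groups overlapped, and flox 3 was the lowest of all 6. The log2 fold change was -0.06 ± 0.20 (edgeR adjusted p = 0.846), and its sign turned to 0.11 with library totals. An antisense gene, Gm16144, overlaps its exons, with the strand setting of the counting not given in the sources used here.

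The ratio of S100a10 to Anxa2 FPKM (counts scaled by library total and gene length, which can be compared between genes) was 0.510, 0.435 and 0.606 for flox 1, 2 and 3, against 0.815, 0.776 and 0.640 for Cre 1, 2 and 3. Each Cre ratio was above each flox ratio, with flox 3 and Cre 3 close together. The mean log2 ratio was -0.96 ± 0.24 for flox and -0.43 ± 0.18 for Cre (SD, n = 3), a difference of 0.53 (exact permutation test, two-sided, p = 0.10, the smallest that 3 libraries against 3 allow). A ratio within a library does not depend on how libraries are scaled. The matching ratio for calprotectin, S100a8 to S100a9, was not computed, because S100a9 had 0 counts in flox 2.

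Calprotectin genes were low in all 6 libraries and uneven. S100a8 (chromosome 3, 90668978 to 90670035) was counted 88, 56 and 19 times in flox 1, 2 and 3, against 126, 30 and 70 times in Cre 1, 2 and 3. S100a9 (chromosome 3, 90692632 to 90695721) was counted 4, 0 and 2 times in flox 1, 2 and 3, against 1, 4 and 19 times in Cre 1, 2 and 3, and the 0 allows up to 0.0862 CPM. The library with most S100a8, Cre 1, thus had 1 count of S100a9, and the library with most S100a9 was Cre 3. The log2 fold change of S100a8 was 0.35 ± 0.73 (edgeR adjusted p = 0.766). It turned to -0.07 without flox 3 and to -0.23 without Cre 1.

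Defining markers of neutrophils, the cells richest in calprotectin, were at or near 0. Of 14 listed, 13 had a row and 4 passed the filter. The defining genes Ly6g and Ngp were at 0 counts in all 6 libraries, and Cxcr2 was at 0 in 5 and had 4 counts in Cre 2. The sums of the list were 155 to 196 CPM in flox and 61.8 to 235 CPM in Cre. No defining gene exceeded 0.489 CPM in any library, so these sums lay almost wholly in other listed genes, not shown here. Ltf, a granule protein gene, was counted 13, 6 and 1 times in flox 1, 2 and 3, against 9, 6 and 20 times in Cre 1, 2 and 3. Camp had 1 count in Cre 1 and 3 in Cre 3, and Retnlg 11 in flox 2 and 4 in Cre 3, each with 0 elsewhere. Cre 3, the library with most S100a9, thus also had most Ltf and Camp, though the 3 Camp counts only equal the floor. Retnlg was instead highest in flox 2, where S100a9 was at 0, and Cxcr2 was counted in Cre 2 alone. Of the 4 neutrophil markers tested, 1 was lower and 0 were higher, and of 9 monocyte markers 3 were lower and 0 higher, beside 8.94% of all tested genes lower and 6.35% higher. Monocyte markers summed to 291 to 379 CPM in flox and 176 to 191 CPM in Cre, and their defining genes Ly6c2, Ccr2 and Chil3 were above 0 in each library. What either cell type contributes to S100a8 and S100a9 was not tested.

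S100a4, a cytoskeleton-binding S100 protein that targets non-muscle myosin (chromosome 3, 90603771 to 90606045), varied most among the Cre libraries. It stood at 9.17, 8.02 and 5.02 CPM in flox 1, 2 and 3 and at 12.0, 24.6 and 5.53 CPM in Cre 1, 2 and 3. Cre 1 and 2 were above all flox libraries and Cre 3 was inside their range. The log2 fold change of 0.92 ± 0.53, as large as that of S100a11, did not pass (edgeR adjusted p = 0.264). Leaving out Cre 2 took it to 0.27, and leaving out Cre 3 to 1.33. Mesothelial marker sums were likewise high in Cre 1 and 2 alone, at 678 and 829 CPM, with their defining genes Msln, Upk3b and Wt1 above 0 in each library and 0 of 10 listed genes past the test. Their part in the S100a4 values was not tested. A predicted gene, Gm42674, overlaps the exons of S100a4 on the same strand.

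S100a6, the gene of calcyclin, which many fibroblasts and epithelia express strongly, was nearly absent from its row. It was counted 12, 1 and 6 times in flox 1, 2 and 3, against 18, 2 and 2 times in Cre 1, 2 and 3. The table holds a second row for a read-through transcript, S100a6-s100a7a, with 0 to 6 counts per library, and the FPKM imply lengths of 590 bases for S100a6 and 2083 bases for the read-through. With the treatment of reads that lie in both not given in the sources used here, these counts cannot be read as the level of S100a6 mRNA.

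**Figure D2:**
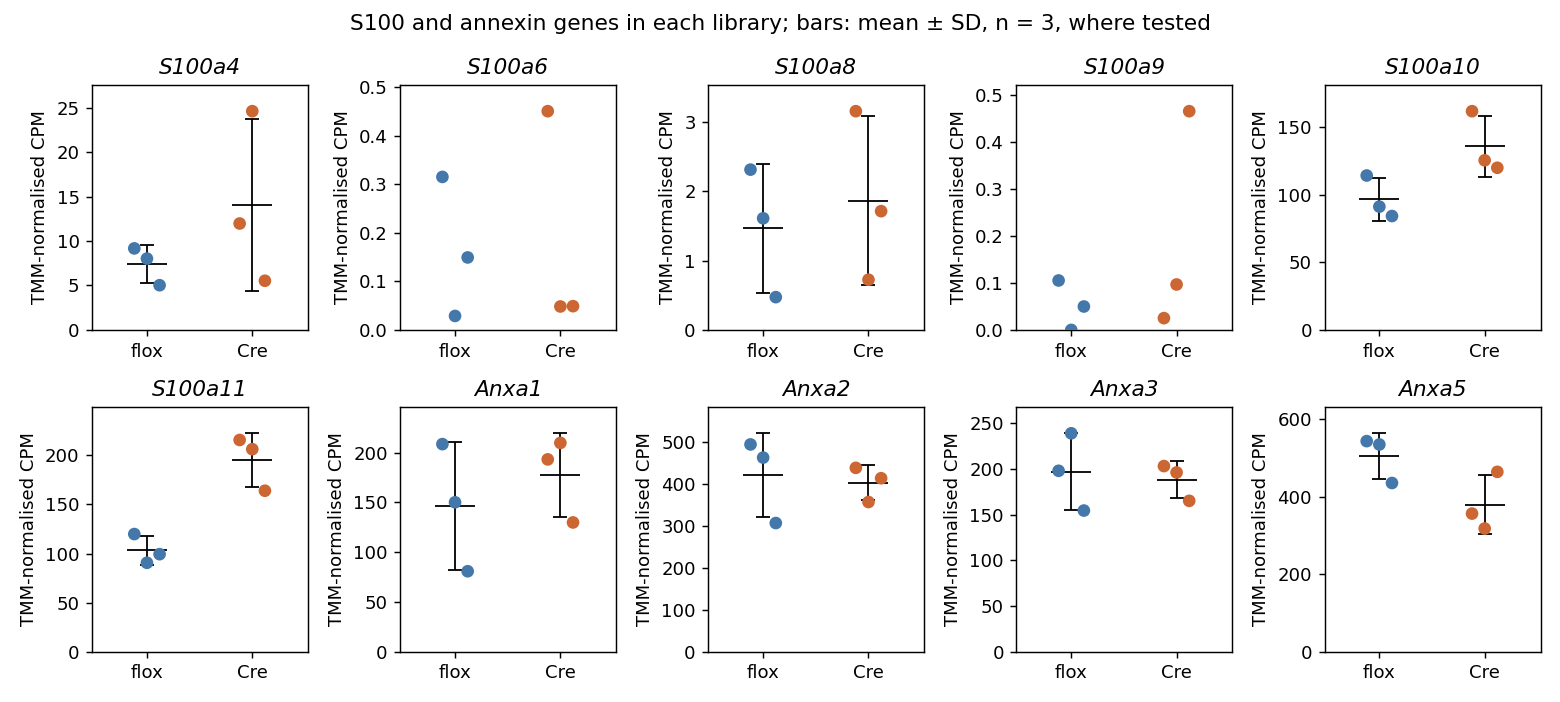
TMM-normalised CPM (vertical axis, from 0) of each of the 10 genes, 1 point per library, flox in blue and Cre in orange, each group in the order of replicates 1 to 3, with mean ± SD (n = 3) for the 8 tested genes. Only S100a10 and S100a11 have all Cre points above all flox points.

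Annexin A5 (Anxa5, chromosome 3, 36448923 to 36475894), the phosphatidylserine-binding protein used to stain dying cells, had the log2 fold change farthest from 0 of the 4 annexins, below the line but not past the test. It stood at 543, 534 and 435 CPM in flox 1, 2 and 3 and at 356, 318 and 464 CPM in Cre 1, 2 and 3. Cre 1 and 2 were below all flox libraries, while Cre 3 lay above flox 3. The log2 fold change was -0.41 ± 0.18 (edgeR adjusted p = 0.151). It was negative in all 16 alternatives, from -0.56 without Cre 3 to -0.25 with library totals, and past the threshold in none of them (adjusted p of 0.0638 to 0.389).

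Annexin A1 (Anxa1, chromosome 19, 20373428 to 20390944), whose secreted form calms leukocytes through formyl peptide receptors, had the largest coefficient of variation of the 4 annexins in both groups, at 43.7% in flox and 23.8% in Cre. It stood at 208, 150.0 and 80.8 CPM in flox 1, 2 and 3 and at 193, 209.7 and 129.8 CPM in Cre 1, 2 and 3. The groups overlapped, and at a log2 fold change of 0.28 ± 0.35 it failed the test (edgeR adjusted p = 0.607). It rested on flox 3, without which it was -0.01.

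Annexin A3 (Anxa3, chromosome 5, 96793339 to 96845966), found in neutrophil granules and in many epithelia, stood at 198, 239 and 155 CPM in flox 1, 2 and 3 and at 203, 196 and 165 CPM in Cre 1, 2 and 3. The groups overlapped. On the log2 scale Anxa3 differed by -0.07 ± 0.18 (edgeR adjusted p = 0.819), which became 0.10 with library totals. Exons of an unclassified transcript, Gm42603, overlap it. All 4 annexins were lowest in flox 3 among the flox libraries, as were 3 of the 4 tested S100 members, S100a11 being the exception. The share of all tested genes lowest in flox 3 was not computed, so this count is no result about the members. Flox 3 stood apart in other cell type markers as well. Summed cholangiocyte markers were at 158 CPM in flox 3 against 1554 and 1950 CPM in flox 1 and 2, and T and NK cell markers at 21.8 against 103 and 113 CPM. Of the defining cholangiocyte genes, Krt19 and Epcam were lowest in flox 3 among the flox libraries, at 17.2 and 0.547 CPM. Cftr went the other way, at 15.7 CPM in flox 3 against 1.26 and 1.18 CPM in flox 1 and 2. Most of each cholangiocyte sum lay in other listed genes, not shown here. The T and NK cell genes Cd3e and Ncr1, at most 2.18 CPM in flox 1 and 2, were lower in flox 3. Macrophage marker sums were also lowest there among the flox libraries, while endothelial sums and hepatocyte sums (805 against 346 and 562 CPM) were highest. The endothelial gene Stab2 was instead lowest in flox 3 among the flox libraries. The part of these in the member values was not tested.

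Per length, the 4 annexins, S100a10 and S100a11 formed the upper tier and S100a4, S100a8 and S100a9 the lower. The S100a6 row was also low, but with the read-through row beside it this is no measure of its mRNA. In flox the order of mean FPKM was Anxa5 (276 ± 19.5), Anxa2 (275 ± 53.9), S100a11 (194 ± 29.4), S100a10 (140 ± 19.9), Anxa1 (98.2 ± 40.2) and Anxa3 (83.8 ± 13.7). Each neighbouring pair in this upper tier overlapped in range in flox. In Cre, S100a11 came first at 410 ± 63.7 FPKM and did not overlap with Anxa2 at 296 ± 32.2, which was followed by Anxa5 at 232 ± 43.2, S100a10 at 221 ± 40.2, Anxa1 at 135 ± 33.4 and Anxa3 at 90.0 ± 11. Anxa5 and S100a10 overlapped there, as did Anxa2 with Anxa5 and Anxa1 with Anxa3, while S100a10 and Anxa1 did not. S100a4 stood at 11.5 ± 2.88 FPKM in flox and 24.6 ± 17.0 in Cre, below all 6 of these in each library, and S100a8 followed at 3.47 ± 2.14 and 5.04 ± 3.36. The S100a6 and S100a9 rows were under 1 FPKM in each library and overlapped. Among all genes of the table, S100a11 ranked between 351st and 102nd over the libraries by FPKM, and S100a4 between 6190th and 1578th.

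**Figure D3:**
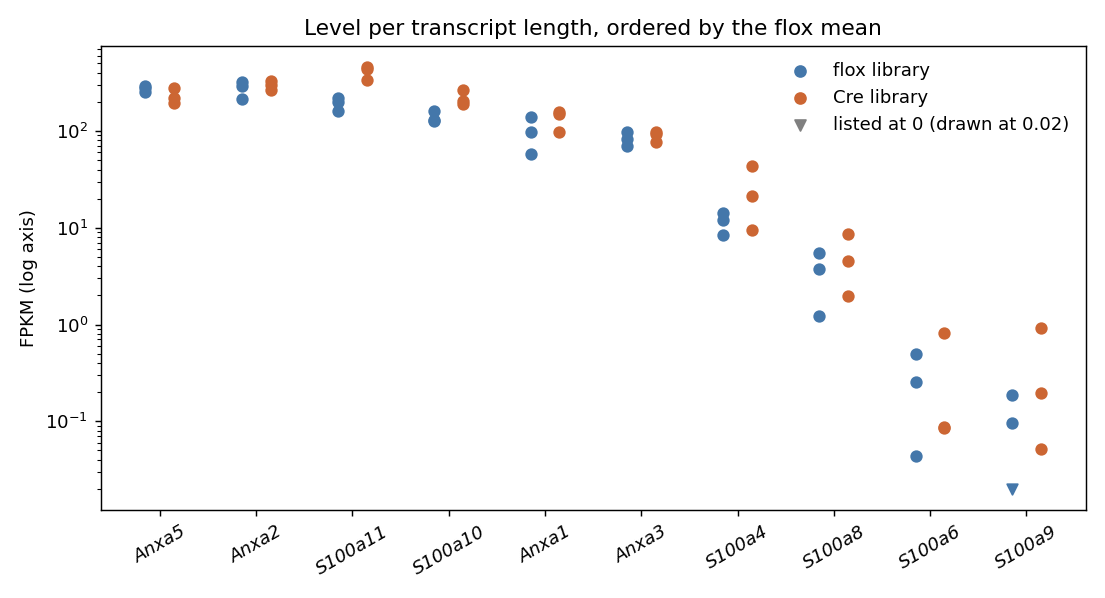
FPKM (log axis) of the 10 genes in each library, flox in blue and Cre in orange, ordered by the flox mean, with the value listed at 0 drawn as a triangle at 0.02. The 4 annexins, S100a10 and S100a11 lie between 58.4 and 459 FPKM and the other 4 genes at most at 43.0.

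The profile nearest to that of each member over the 6 libraries was sought among 9915 or 9916 tested genes, predicted genes left out, of an average log2 CPM of at least 3, as the root mean square difference of mean-centred log2 CPM. Nearest to S100a11 were the Wnt receptor gene Fzd1 (0.062), Gpx8 (0.065) and Fam149a (0.067), while S100a10, at 0.25, came 381st. Nearest to S100a10 were Oxnad1, Sipa1l2 and Nasp (0.068 to 0.086) and nearest to S100a4 were Smim1, Gdf6 and Atp1b1 (0.18 to 0.27). The genes nearest to the annexins were Tpm2, Megf9 and Isyna1 for Anxa1 (0.16 to 0.17), Flot2, Hk2 and Tmed3 for Anxa2 (0.049 to 0.057), Baiap2, Pex7 and Lrrc45 for Anxa3 (0.028 to 0.053) and Mapk8ip3, Irak2 and Ifnar2 for Anxa5 (0.046 to 0.061). For S100a8 the nearest were farther off, with Gdf2 at 0.49, Rragd at 0.49 and Lrrc20 at 0.57. Its own average log2 CPM was 0.78, below the level the search kept, so genes of its level were not compared. With so many genes and 6 libraries these are descriptions of likeness only.

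Of the remaining genes of both families, 1 annexin passed the test and no S100 gene did. Of 10 other S100 genes listed, 7 had a row and 3 were tested, with 0 higher and 0 lower: S100a1 was at -0.45 ± 0.34, S100a13 at -0.21 ± 0.26 and S100a16 at 0.05 ± 0.33 on the log2 scale, with edgeR adjusted p of 0.385 to 0.927. Without flox 3, S100a1 passed (-0.75, edgeR adjusted p = 0.0276), in a fit that called 5329 of 15296 genes tested. Of 8 other annexins, 6 were tested, with 0 higher and 1 lower beside 6.35% and 8.94% of all tested genes, which is near the background, and their median log2 fold change was -0.36. The one that fell was Anxa9, an annexin of low level here, from 6.30 ± 2.83 to 2.12 ± 0.44 CPM (SD, n = 3), or -1.57 ± 0.41 on the log2 scale (edgeR adjusted p = 0.0496). Its adjusted p was 0.0541 with library totals, 0.0924 in limma-voom, 0.00239 in DESeq2 and 0.104 to 0.161 with any 1 library but flox 3 left out. Its exons overlap those of Mindy1 and 6330562C20Rik. Anxa4 stood at 283, 296 and 127 CPM in flox 1, 2 and 3 and at 107, 113 and 117 CPM in Cre 1, 2 and 3, so flox 3 was close to the Cre libraries, and at -1.06 ± 0.31 on the log2 scale it missed the threshold (edgeR adjusted p = 0.0620). It passed in DESeq2 (0.00832), which called 4334 of 14795 genes, and in the fit without flox 3 (-1.36, adjusted p = 0.000533), which called 5329. Summed cholangiocyte markers were likewise high in flox 1 and 2 alone, at 1554 and 1950 CPM. They stood at 158 CPM in flox 3 and at 413, 411 and 397 CPM in Cre 1, 2 and 3, with 1 of 8 higher and 1 lower. The defining genes Krt19, Epcam and Cftr were above 0 in each library, but Krt19 and Cftr did not follow the sums. Cftr was lowest in flox 1 and 2, at 1.26 and 1.18 CPM, against 15.7 CPM in flox 3 and 8.68 to 12.4 CPM in Cre. Krt19 was highest in Cre 1, at 40.2 CPM, against 34.7 and 37.8 CPM in flox 1 and 2. Epcam was highest in flox 1 and 2, at 1.08 and 0.719 CPM. Most of each sum thus lay in other listed genes, not shown here, and the sums cannot be read as the level of cholangiocytes. The part of these markers in the Anxa4 values was not tested. Anxa6 was at -0.45 ± 0.22 and Anxa7 at -0.25 ± 0.14, neither past the test, though Anxa6 passed without Cre 3 (-0.71, adjusted p = 0.0398).

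Of 18 listed receptors and partners of these proteins, 16 were tested, with a median log2 fold change of -0.72. By edgeR 0 of the 16 were higher and 2 were lower, beside 6.35% and 8.94% of all tested genes, so the counts are near the background and are no result about the list. Fpr2, a receptor for annexin A1, fell from 47.5 ± 1.25 to 22.2 ± 4.82 CPM (SD, n = 3), a log2 difference of -1.10 ± 0.17 (edgeR adjusted p = 0.0237), with Fpr3 overlapping its exons. Tgm2, the protein-cross-linking transglutaminase, fell from 2226 ± 463 to 947 ± 137 CPM, a log2 difference of -1.23 ± 0.21 (edgeR adjusted p = 0.0241), with Rprd1b overlapping on the other strand. Both calls were lost without flox 1, flox 2, Cre 1 or Cre 2, at adjusted p of 0.0677 to 0.107, in the fits that called 0 of all genes. The log2 fold changes there were -0.94 to -1.11 for Fpr2 and -1.10 to -1.22 for Tgm2. Tlr4, a receptor for calprotectin, was at -0.71 ± 0.21, the scavenger receptor Cd36 at -1.61 ± 0.50 and Bsg, which encodes basigin, at 0.31 ± 0.11, with edgeR adjusted p of 0.0684 to 0.0991. All 3 passed in DESeq2 (0.0166, 0.00601 and 0.0273), and Tlr4 and Cd36 also in edgeR without flox 3 (0.0346 and 0.00128). DESeq2 called 4334 of 14795 genes tested, and the fit without flox 3 called 5329 of 15296. Cd36 overlapped between the groups, at 687, 864 and 202 CPM in flox 1, 2 and 3. In Cre 1, 2 and 3 it stood at 170, 236 and 168 CPM. Bsg, on the higher side, also passed with library totals (0.0473) and in limma-trend on genes of a mean FPKM of at least 1 (0.0386). Macrophages also express Fpr2, Tlr4 and Cd36, and the macrophage marker sums were lower in the same libraries, at 1316 to 1993 CPM in Cre against 7549 to 18891 CPM in flox, with their defining genes Adgre1, Clec4f, Csf1r and C1qa above 0 in each library. The part of macrophages in these values, those of Tgm2 included, was not tested.

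**Figure D4:**
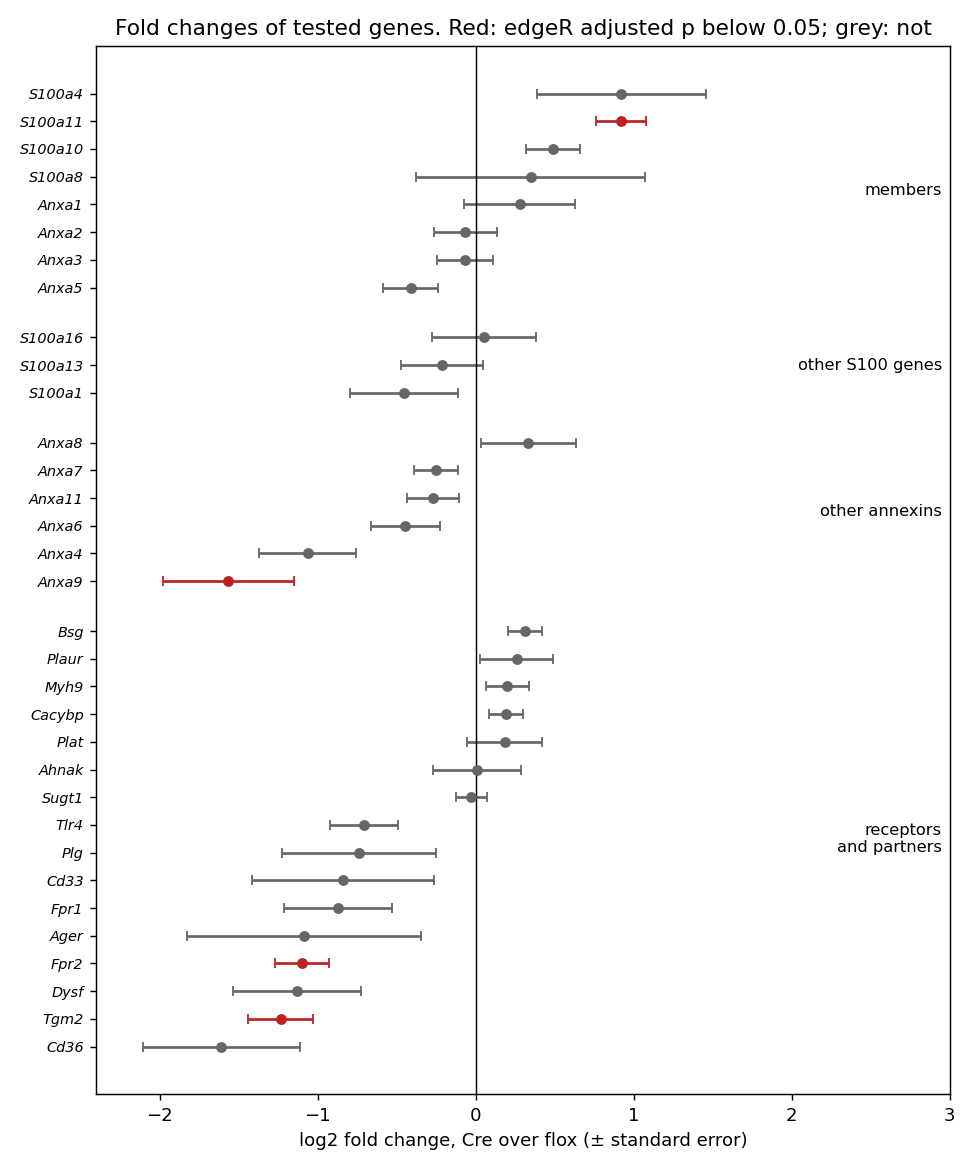
Log2 fold change, Cre over flox, with its standard error (horizontal axis) for the tested members, other S100 genes, other annexins and receptors and partners. Red points passed an edgeR adjusted p of 0.05: S100a11 on the higher side and Anxa9, Fpr2 and Tgm2 on the lower side.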

How the data were processed

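RNA was sequenced from 6 libraries (3 flox, 3 Cre, from the titles). The authors deposited raw counts per gene symbol and a table of FPKM. The FPKM equal counts divided by the library total and 1 length per gene. Builds in the submitters' processing notes are GRCm38, mm10 and hg38, without a role. With aligner, counter and strand setting not given in the sources used here, positions come from GENCODE M21 by symbol. Of all genes, 0 rows lacked a gene name and 0 per-sample columns were left unused. Counts were tested over all genes with edgeR 4.0.16 (R 4.3.3): filterByExpr (minimum count 10, total 15) kept 14795 genes and removed 8171, with TMM scaling, the two-sided quasi-likelihood F-test without covariates and Benjamini-Hochberg adjustment (threshold 0.05). Standard errors were obtained by dividing the absolute log2 fold change by the square root of F. CPM are TMM-scaled. Every pair of libraries differed by more than sampling noise (lowest chi-square per gene 33.8). Alternatives used DESeq2 1.42.0 and limma 3.58.1. The edgeR fit with and without the replicate block, DESeq2, limma-voom and limma-trend on CPM were tested on simulated data. The other scalings and filters, limma-trend on FPKM and the permutation test were not. Members, lists and the naming rule (all members; in each related list the genes past the threshold and the 3 of lowest p besides; for each member the 3 nearest profiles) were chosen with earlier results of these data known.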

Additional observations from a re-analysis of the deposited data

How the results depend on the processing

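The count of members higher was 1 with RLE factors, DESeq2, limma-voom, both other count filters and limma-trend on log2(FPKM + 1) and log2(FPKM + 0.1). It was 2, with S100a10 added, with library totals and where limma-trend kept genes from a mean FPKM of 1 upwards, and 0 to 1 with 1 library left out. No alternative called a member lower. Over all genes, 2263 calls became 4334 in DESeq2, 1404 in limma-voom and 1117 in limma-trend on log2(FPKM + 1). With 1 library left out there were 0 to 5329 calls, the 5329 without flox 3. The fits with 0 calls had 3562 to 3978 genes at an unadjusted p below 0.05. No other tool was run on those. The share of calls that were higher, 41.5%, became 57.0% with library totals, 53.0% to 59.6% on the FPKM scales and 56.3% without Cre 3. No pairing by the numbers in the titles was evident: deviations of same-numbered libraries correlated at -0.03, -0.10 and -0.06. Those of differently numbered libraries correlated at -0.03 to 0.10, a similar size, so this check cannot exclude pairing. With the replicate block, 0 members and 0 of all genes passed, with 4296 genes at an unadjusted p below 0.05, and S100a11 was at 0.92 (adjusted p = 0.0752). Signs turned for Anxa2 (0.11 with library totals, 0.12 on each FPKM scale and -0.24 to 0.081 with 1 library left out), for Anxa3 (0.10 with library totals, 0.11 on each FPKM scale and -0.21 to 0.11), for S100a8 (-0.23 to 0.86) and for Anxa1 (-0.011 to 0.64). The difference in the S100a10 to Anxa2 ratio ran from 0.41 to 0.65 with 1 library left out. The S100a8 to S100a9 ratio was not run. The causes of these changes were not tested, and counts of S100a6, S100a8 and S100a9 limit what their rows can show.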

Other observations

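S100a5 and S100g, which were not tested, each had counts in 1 library only, Cre 2, with 11 and 8 counts and 0 in the other 5 libraries. Cre 2 was also the library with most S100a4, at 1019 counts. Anxa8 stood at 54.0, 35.1 and 43.9 CPM in flox 1, 2 and 3 and at 80.4, 49.9 and 37.2 CPM in Cre 1, 2 and 3, highest in Cre 1, with a log2 fold change of 0.33 ± 0.30 that did not pass (edgeR adjusted p = 0.463). S100a5, S100g and Anxa8 were chosen after their values were seen.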
